A study of Rattus norvegicus with 3 samples.

Results

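The cytochrome P450 genes of the rat kidney were examined in spontaneously hypertensive rats given a hydrolysate of blue mussel protein, leaving out the arachidonic acid enzymes Cyp4a1, Cyp4a2, Cyp4a3, Cyp4a8, Cyp2c23 and Cyp2j4, the vitamin D enzymes Cyp24a1 and Cyp27b1, and Cyp51 of cholesterol synthesis. The members were all other genes whose name in the scanner files begins with Cyp and a digit, 68 genes of the 19393 named genes on the array. The list still holds genes whose enzymes also act on fatty acids and their signalling products, among them the Cyp4f genes and Cyp2j3. The animals were males of a strain with a Wistar background, aged 8 to 10 weeks and weighing 280 to 330 g. The groups received water (control), the hydrolysate at 10 mg/kg per day (low dose) or the hydrolysate at 20 mg/kg per day (high dose), each by mouth for 4 weeks in 10 rats. Kidney RNA of 4 rats per group was pooled and put on 1 array with a single dye. The data are therefore 3 arrays of 1 pool each, so no test was possible and the differences below describe these arrays.

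P450 enzymes are haem proteins that insert oxygen into drugs, fatty acids, sterols and steroids. Those of the endoplasmic reticulum take electrons from the reductase Por, and those of mitochondria from the ferredoxin Fdx1. Families 1 to 3 handle mainly foreign compounds, family 4 hydroxylates the ends of fatty acids, and the remaining families make or break down steroids, bile acids and retinoic acid. In the kidney, most P450 protein lies in the proximal tubule.

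Values are scaled intensities, which are spot brightness after background subtraction, with the 75th percentile made equal on all arrays. A gene was read from its brightest probe above background, meaning that 50% or more of its spots reached a signal-to-noise ratio of 3. Intensities of different probes cannot be set against each other, so comparisons run between arrays for the same gene. Where 3 intensities are given they run control, low dose, high dose, and where 2 log2 differences are given they are the low dose and then the high dose, each minus control. Of the 68 members, 24 stood above background on all 3 arrays, 5 on some of them and 39 on none. The number above background was 26 in the control pool, 24 at the low dose and 29 at the high dose. Over all named genes these numbers were 10714, 11125 and 11556. Of the 19393 named genes, 10252 were above background on all 3 arrays and 11991 on at least 1. In all, 60 members were printed on 1 spot and 8 on 10 spots. Probes with 10 spots gave a measure of technical spread, taken outside a weak corner of the arrays (columns up to 40 and rows up to 24). Between the low-dose and control arrays, 95% of single-spot log2 differences lay within 0.22 of their probe's median at 100 units and over, and within 0.37 under 100 units. For the high-dose and control arrays these limits were 0.21 and 0.38, and for the high-dose and low-dose arrays 0.16 and 0.33. This is spread between spots, and variation between animals was not measured.

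Among members above background on both arrays compared, genes of Cyp2d and Cyp2c passed 2-fold, and in each subfamily the leading gene has a member as its neighbour in the RefSeq gene table of the GRCr8 assembly. The promoters of these neighbours are shown because both the probes and the upstream sequences of such copies can be alike. All are from RefSeq (GRCr8), read 5′ to 3′ from 250 bases before to 50 bases after the annotated start, with TATAAA (or its reverse complement TTTATA) and the nuclear receptor motif AGGTCA in capitals. Cyp2d5 is at chr7:115784438-115784737 and Cyp2d1 at chr7:115793381-115793680, both on the minus strand. Cyp2c11 is at chr1:246174966-246175265 and Cyp2c24 at chr1:246286091-246286390, both on the plus strand.
Cyp2d5: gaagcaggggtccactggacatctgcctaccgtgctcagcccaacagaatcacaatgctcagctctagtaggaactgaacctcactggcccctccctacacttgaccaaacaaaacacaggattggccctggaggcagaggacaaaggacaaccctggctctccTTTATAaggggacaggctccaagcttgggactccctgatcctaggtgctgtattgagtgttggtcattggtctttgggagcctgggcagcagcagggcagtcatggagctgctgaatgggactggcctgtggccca
Cyp2d1: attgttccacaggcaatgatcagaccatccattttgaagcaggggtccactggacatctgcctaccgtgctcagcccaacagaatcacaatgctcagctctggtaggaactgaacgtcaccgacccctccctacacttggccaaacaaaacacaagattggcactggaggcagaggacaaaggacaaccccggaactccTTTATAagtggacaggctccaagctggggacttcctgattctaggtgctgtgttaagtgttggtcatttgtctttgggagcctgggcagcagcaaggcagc
Cyp2c11: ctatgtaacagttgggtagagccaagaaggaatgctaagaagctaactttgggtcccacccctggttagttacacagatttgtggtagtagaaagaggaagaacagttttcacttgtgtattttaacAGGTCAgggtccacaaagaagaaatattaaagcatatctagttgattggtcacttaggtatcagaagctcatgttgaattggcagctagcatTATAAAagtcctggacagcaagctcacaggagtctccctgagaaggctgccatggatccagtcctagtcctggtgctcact
Cyp2c24: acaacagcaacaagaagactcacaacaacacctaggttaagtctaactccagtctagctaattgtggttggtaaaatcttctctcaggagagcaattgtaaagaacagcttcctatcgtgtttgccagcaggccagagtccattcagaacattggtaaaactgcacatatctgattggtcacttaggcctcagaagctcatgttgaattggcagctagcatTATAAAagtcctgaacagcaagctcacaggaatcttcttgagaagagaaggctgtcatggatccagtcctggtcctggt
In a global alignment the windows of Cyp2d1 and Cyp2d5 shared 247 identical bases over 335 columns (73.7%), and those of Cyp2c11 and Cyp2c24 shared 221 over 337 (65.6%). The TATA match began at -86 in Cyp2d5 and at -51 in Cyp2d1 relative to each annotated start. It began at -31 in Cyp2c11 and at -29 in Cyp2c24. Cyp2c11 also held AGGTCA at -123, which the window of Cyp2c24 lacked.

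Sequence was available for 55 members, 24 of them above background on at least 1 array. TATAAA occurred on either strand in 17 of the 55 windows, against 14.2% of the 33469 promoters of that length in the same table. AGGTCA occurred in 18 of 55, against 16.2%. Other motifs searched on both strands included TTGCNNAA of C/EBP factors (14 of 55, against 10.6%), TTCNNNGAA of STAT factors (5 of 55, against 8.87%), CAAAGTCC of HNF4 (2 of 55, against 1.4%) and GCGTG, the core bound by the aryl hydrocarbon receptor (17 of 55, against 29.7%). These matches describe letters in a short window of the reference strain.

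The 4 measured Cyp2d genes, whose enzymes oxidise many basic drugs and belong with human CYP2D6, stood lowest on the low-dose array. Cyp2d5 read 7037 units in control, 2933 at the low dose and 4114 at the high dose. Both hydrolysate arrays were below control, the low dose more so. The log2 difference of Cyp2d5 was -1.26 at the low dose and -0.77 at the high dose against control, and 0.49 between the high and low doses. It was the member at least 2-fold lower at the low dose, 1 of 24 measured members, where 0.782% of 10354 named genes were that much lower. No measured member (0 of 24) was at least 2-fold higher at the low dose, against 2.46% of all named genes.

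Cyp2d1 read 5433, 2917 and 4085 units. Its order over the arrays was that of Cyp2d5, with log2 differences of -0.90 at the low dose and -0.41 at the high dose. The control spot of Cyp2d1 was uneven, with a net pixel mean of 4741 and a net pixel median of 6276. With pixel medians on all arrays the low-dose difference was -1.24, and with the authors' deposited log2 values it was -1.21, both past 2-fold. The high-dose difference was then -0.79 and -0.75, in place of -0.41. Cyp2d1 and Cyp2d5 are close copies, and these probes may read both transcripts in part. The 2 genes should therefore not be read as independent observations, although both enter the counts and medians given here. Cyp2d2 read 55.0, 35.5 and 50.04 units, a log2 difference of -0.63 at the low dose and -0.14 at the high dose. Under normexp, another background correction, these were -0.34 and -0.16. Cyp2d4 stood at -0.34 and -0.11 as processed here, and its other probe gave -0.77 and -0.29. Cyp2d3 stood above background on 1 array, at 18.3, 19.2 and 19.1 units. The 5 Cyp2d genes lie next to each other on chromosome 7 of the assembly, in the order Cyp2d4, Cyp2d5, Cyp2d1, Cyp2d3 and Cyp2d2. All 4 measured members lay below control at both doses, with a median of -0.76 at the low dose and -0.27 at the high dose, while all named genes had medians of -0.11 and -0.05.

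Cyp2c11, the testosterone hydroxylase that dominates in the liver of male rats, had a different order. It read 301 units in control, 158 at the low dose and 400 at the high dose. The low dose was below control and the high dose above it. The log2 difference was -0.93 at the low dose, just short of 2-fold, and 0.41 at the high dose. Between the doses it was 1.34, or 2.53-fold higher at the high dose, which made it the member past 2-fold in that comparison (1 of 24 higher, with 0.473% of 10778 named genes; 0 of 24 lower, with 1.5%). It stayed past 2-fold between the doses under all 12 alternatives, from 1.11 to 1.34. At the low dose it passed 2-fold under 2 of them, with pixel medians (-1.02) and with the authors' deposited log2 values (-1.01). Alternatives that change only the choice of probes or the background filter could not alter Cyp2c11, which has 1 probe, above background on every array. Cyp2c24, its neighbour on chromosome 1, read 402, 254 and 301 units, with log2 differences of -0.66 at the low dose and -0.42 at the high dose. A different probe of Cyp2c24 gave -0.62 and -0.13. Of the other 6 Cyp2c genes, Cyp2c79 was above background on the high-dose array alone, at 22.9, 18.2 and 22.7 units. Cyp2c6v1, Cyp2c7, Cyp2c12, Cyp2c13 and Cyp2c22 were above it on none.

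**Figure D1:**
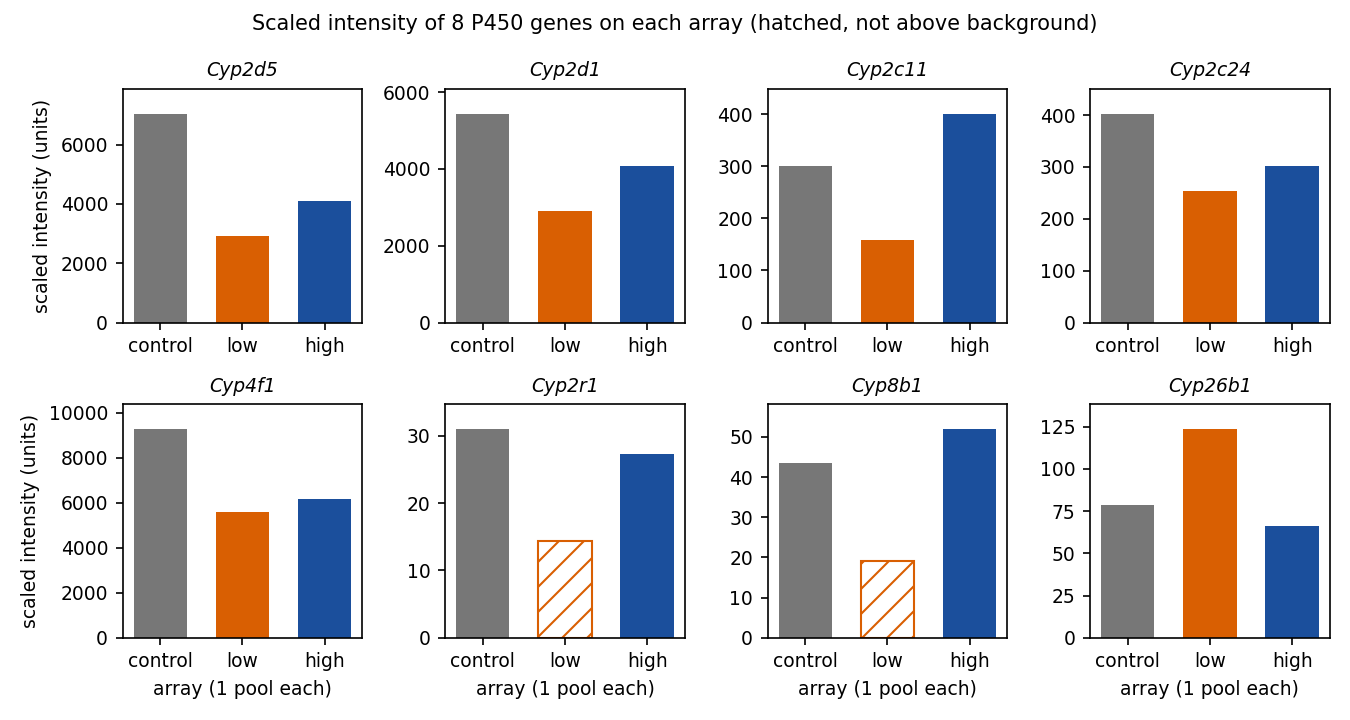
Scaled intensity (vertical axis, units, each panel from 0) of 8 P450 genes at control, low dose and high dose, with 1 bar per array and hatched bars where the probe was not above background. Cyp2d5, Cyp2d1, Cyp2c11 and Cyp8b1 were lowest on the low-dose array, where Cyp26b1 was highest.

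Across family 2, all 13 members measured on the low-dose and control arrays lay below control at the low dose, with log2 differences from -1.26 to -0.09 and a median of -0.48. Of all named genes, 64.7% lay below control in that comparison. At the high dose 11 of 14 lay below control, against 56.9% of named genes, and the median was -0.16. Between the doses 10 of 13 were higher at the high dose, against 54.7% of named genes, with a median of 0.26. The comparisons share arrays and are not independent of each other. In pooled whole-tissue RNA, fewer cells of a type and less RNA per cell cannot be told apart.

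No other family 2 gene passed 2-fold between measured values. Cyp2e1, which oxidises ethanol and small solvents, was printed on 10 spots and read 1560, 1264 and 1517 units, or -0.30 at the low dose and -0.04 at the high dose. Its spots, 1 of them in the weak corner, had SDs of 0.29, 0.20 and 0.22 (log2, n = 10 spots). Cyp2s1, a P450 of epithelia outside the liver, read 307, 212 and 199 units. Its log2 differences were -0.53 and -0.62, and its other probes gave -0.32 and -0.13, and -0.40 and -0.47. As processed here its high-dose difference was the second lowest of the members. With the authors' deposited values it was not (-0.54, with Cyp2d1 at -0.75 and Cyp4f1 at -0.61). Cyp2b15 and Cyp2b3, relatives of the phenobarbital-inducible Cyp2b enzymes, were dim and read 40.1, 28.8 and 41.9 units and 27.5, 20.1 and 30.9 units. Both lay below control at the low dose (-0.48 and -0.45) and near it at the high dose (0.06 and 0.17). Under normexp their low-dose differences were -0.26 and -0.23. Cyp2j3, an arachidonic acid epoxygenase in the rat, stood at -0.41 and -0.30, and Cyp2f4, whose relatives activate naphthalene in the lung, at -0.17 and -0.35. Cyp2t1 stood at -0.09 at both doses. Not above background on any array that gave a value were 16 family 2 genes, at most 17.2 units: the 5 Cyp2c genes named above, Cyp2a1, Cyp2a2, Cyp2a3, Cyp2b2, Cyp2b12, Cyp2b21, Cyp2g1, Cyp2j10, Cyp2j16, Cyp2u1 and Cyp2w1.

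Cyp2r1, the liver enzyme known for the first hydroxylation of vitamin D, read 30.9 and 27.3 units on the control and high-dose arrays and was not above background on the low-dose array, at 14.4 units. Against control its low-dose value was 2.15-fold lower. Its log2 difference at the high dose was -0.18. Genes with a ratio to a value not above background, Cyp2r1 and Cyp8b1, are not among the 24 members counted at the low dose. Where a probe was dim on 1 array, the ratio set its bright value against the higher of its own dim value and the lowest value above background there. For both genes that was the dim value itself, so the ratios are estimates and not lower limits. Single dim spots of this kind are the least precise values here.

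**Figure D2:**
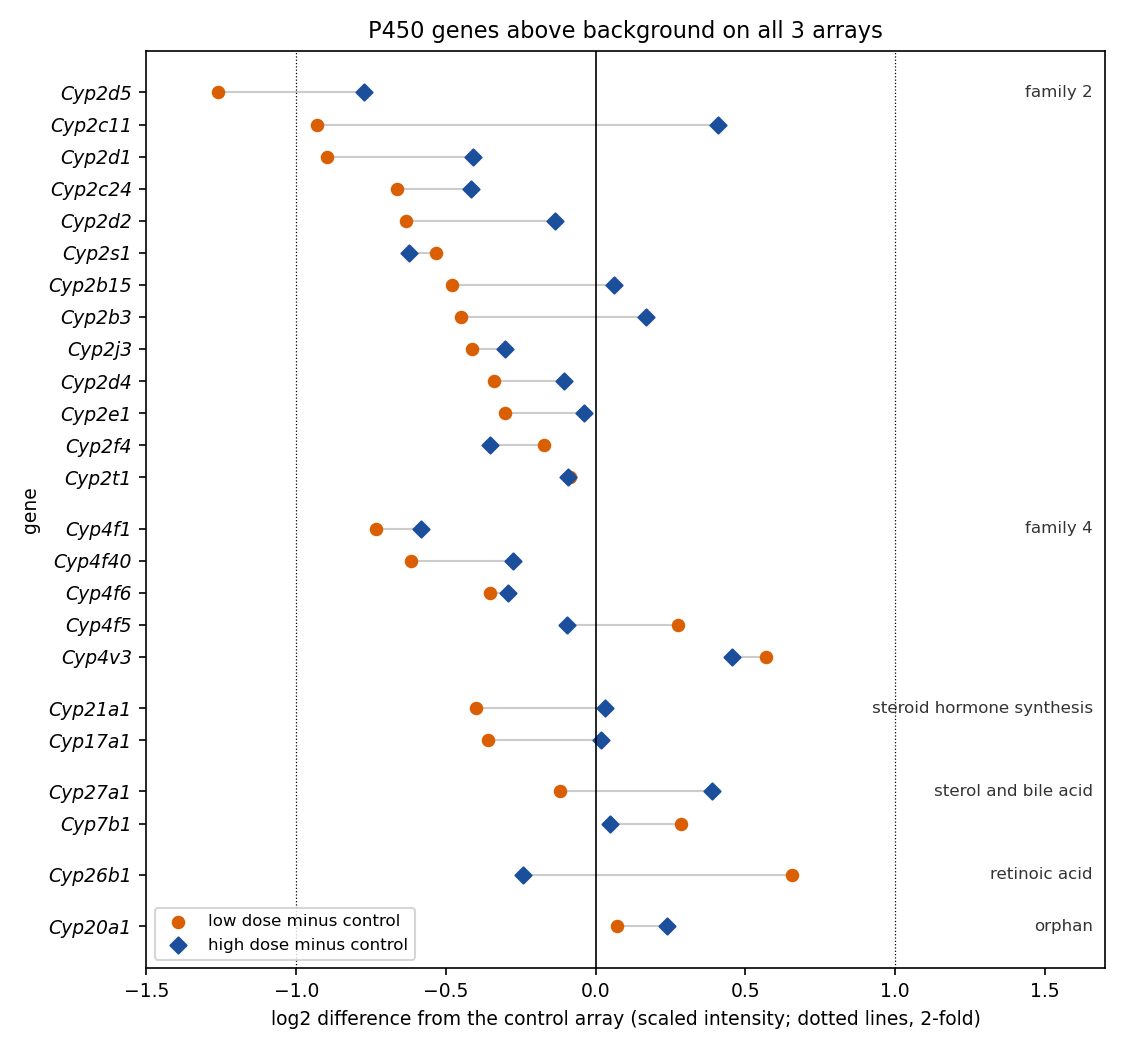
Log2 difference from control (horizontal axis, scaled intensity) of the 24 P450 genes above background on all 3 arrays, grouped by family or role, with circles for the low dose, diamonds for the high dose and dotted lines at 2-fold. All 13 family 2 genes shown lie left of 0 at the low dose, and Cyp2d5 alone passes a dotted line.

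Family 1 and family 3, the best-known drug-induced P450s, gave no measured member. Cyp1a1, Cyp1a2 and Cyp1b1, which are induced through the aryl hydrocarbon receptor, were not above background on any array and read at most 14.9 units. The 6 Cyp3a genes (Cyp3a2, Cyp3a9, Cyp3a18, Cyp3a23/3a1, Cyp3a62 and Cyp3a73) were also below it, at most 10.9 units. The lowest values above background were 13.8, 11.5 and 8.19 units, and differences below such values have no order. These arrays therefore cannot show whether those genes differed between the groups.

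In family 4 the end-hydroxylases of fatty acids and leukotrienes split. Cyp4f1 read 9262 units in control, 5575 at the low dose and 6188 at the high dose. Both doses were below control, at -0.73 and -0.58. Cyp4f40 stood at -0.62 and -0.28 and Cyp4f6 at -0.35 and -0.29. Cyp4f5 was above control at the low dose, at 0.27, and at -0.09 at the high dose. Cyp4v3, a fatty acid hydroxylase whose human relative is mutated in a crystalline dystrophy of the retina, was dim at 25.2, 37.4 and 34.6 units, with differences of 0.57 and 0.46. Under normexp these were 0.11 and 0.02. Of the 5 measured members 3 lay below control at the low dose and 4 at the high dose, and 2 and 1 lay above it. Among all named genes 64.7% and 56.9% lay below control. The other 6 family 4 genes, Cyp4b1, Cyp4f4, Cyp4f17, Cyp4f18, Cyp4f39 and Cyp4x1, were below background on all arrays.

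Of the steroid hormone enzymes, Cyp17a1 and Cyp21a1, the adrenal hydroxylases of steroid carbons, were measured. Cyp21a1 read 96.3, 72.9 and 98.3 units and Cyp17a1 33.2, 25.9 and 33.7 units. Both were lower at the low dose (-0.40 and -0.36) and close to control at the high dose (0.03 and 0.02). Cyp11b3 was above background on the high-dose array alone, but its intensity was highest in control, at 33.2, 17.3 and 26.4 units. Cyp11a1, Cyp11b1 and Cyp11b2, which make the first steroid, corticosterone and aldosterone in the adrenal gland, were above background on no array. Adrenal cortex markers are given beside them. The defining genes Star, Mc2r and Nr5a1, and Akr1b7, were not above background on any array, while 6 of the 10 markers found stood above it on at least 1 array (Fdx1, Mrap, Scarb1, Hsd3b1, Nr0b1 and Inha). The list summed to 3826, 3556 and 3911 units, most of it from Fdx1 (2424, 2456 and 2678 units), which is not particular to the adrenal gland, and Mrap (1186, 869 and 1034 units). The part of adrenal tissue in these values was not tested.

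Bile acid and sterol enzymes were mostly dim. Cyp8b1, the sterol hydroxylase that sets the share of cholic acid in liver, read 43.5 and 51.9 units on the control and high-dose arrays and was not above background on the low-dose array, at 19.2 units. Its low-dose value was 2.27-fold below control, and its high-dose value was 2.70-fold above the low-dose value. Both ratios are estimates from single spots, with the low-dose spot not above background. Cyp27a1, the mitochondrial sterol hydroxylase, stood at -0.12 and 0.39. Its low-dose value was above 0 under 3 alternatives (0.19 with the authors' deposited values, 0.06 with quantile normalization and 0.04 with pixel medians), and its high-dose value was -0.02 under normexp. The oxysterol hydroxylase Cyp7b1, printed on 10 spots, stood at 0.29 and 0.05. Cyp7a1, which begins bile acid synthesis in liver, Cyp39a1 and Cyp46a1 were below background on all arrays. Nr0b2, the nuclear receptor that represses bile acid enzymes in liver, read 382, 220 and 427 units, or -0.80 at the low dose and 0.16 at the high dose.

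Cyp26b1, which degrades retinoic acid, had the highest low-dose difference of the members as processed here, though not with the authors' deposited values (0.57, with Cyp4v3 at 0.72) or quantile normalization (0.67, with Cyp4v3 at 0.68). Its 10 spots averaged 78.4 units in control, 123 at the low dose and 66.2 at the high dose. The low dose was above both other arrays. Its log2 differences were 0.65 at the low dose, -0.24 at the high dose and -0.90 between the high and low doses. Under normexp these were 0.38, -0.20 and -0.58. The SD between its spots was 0.25, 0.22 and 0.19 (log2, n = 10 spots). The retinoic acid receptor genes Rara and Rarb stood at 0.23 and 0.55 at the low dose and at 0.36 and 0.38 at the high dose. Cyp26a1 and Cyp26c1 were below background. The orphan Cyp20a1 stood at 0.07 and 0.24.

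Over all measured members, 19 of 24 lay below control at the low dose and 5 above it, against 64.7% and 35.3% of named genes, and the median was -0.38, where all named genes had -0.11. At the high dose 16 of 26 lay below control and 10 above it, against 56.9% and 43.1% (21 below and 5 above under normexp), and the median was -0.10, where all named genes had -0.05. No member was past 2-fold there (0 of 26 higher, against 0.855% of named genes, and 0 of 26 lower, against 0.162%). Between the doses 17 of 24 were higher at the high dose and 7 lower, against 54.7% and 45.3%, and the median was 0.24, where all named genes had 0.04. Of the 24 members above background on all arrays, 16 were lowest on the low-dose array, as were 43.2% of the 10252 named genes so measured. Control was lowest for 3 members and the high dose for 5.

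Genes that work with the P450 enzymes were read from lists of electron donors, haem enzymes and regulators. Of 11 measured electron donors and cofactors, 0 passed 2-fold at either dose and 7 lay below control at each dose. Their medians were -0.15 at the low dose and -0.08 at the high dose. Of all named genes, 64.7% and 56.9% lay below control, with medians of -0.11 and -0.05. At least 2-fold higher were 2.46% and 0.855% of them, and at least 2-fold lower 0.782% and 0.162%. Por read 314, 284 and 274 units, or -0.15 and -0.20. Fdx1 stood at 0.02 and 0.14, and Pgrmc1, a haem-binding partner, at -0.56 and -0.33. Of 8 measured haem synthesis genes, 7 lay below control at the low dose and 5 at the high dose, with medians of -0.27 and -0.14 and none past 2-fold. Alad, the second enzyme of the path, stood at -0.46 and -0.56, and Alas2, the first enzyme in red cell precursors, at 0.59 and 0.96.

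Of 25 listed regulators 17 were measured at the low dose, where 13 lay below control with a median of -0.33. At the high dose 16 were measured, and 12 lay below with a median of -0.17. Over all named genes 64.7% and 56.9% lay below control, with medians of -0.11 and -0.05. No regulator passed 2-fold. Of named genes 2.46% and 0.855% were that much higher, and 0.782% and 0.162% that much lower. Nr1i2, the pregnane receptor that drives Cyp3a and Cyp2b in liver, read 460, 313 and 294 units, or -0.56 and -0.64. Hnf4a, a nuclear receptor that maintains P450 expression in liver and proximal tubule, read 89.4, 67.1 and 90.1 units, or -0.41 and 0.01. Ahr and the constitutive receptor Nr1i3 were not measured on both arrays in any comparison.

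**Figure D3:**
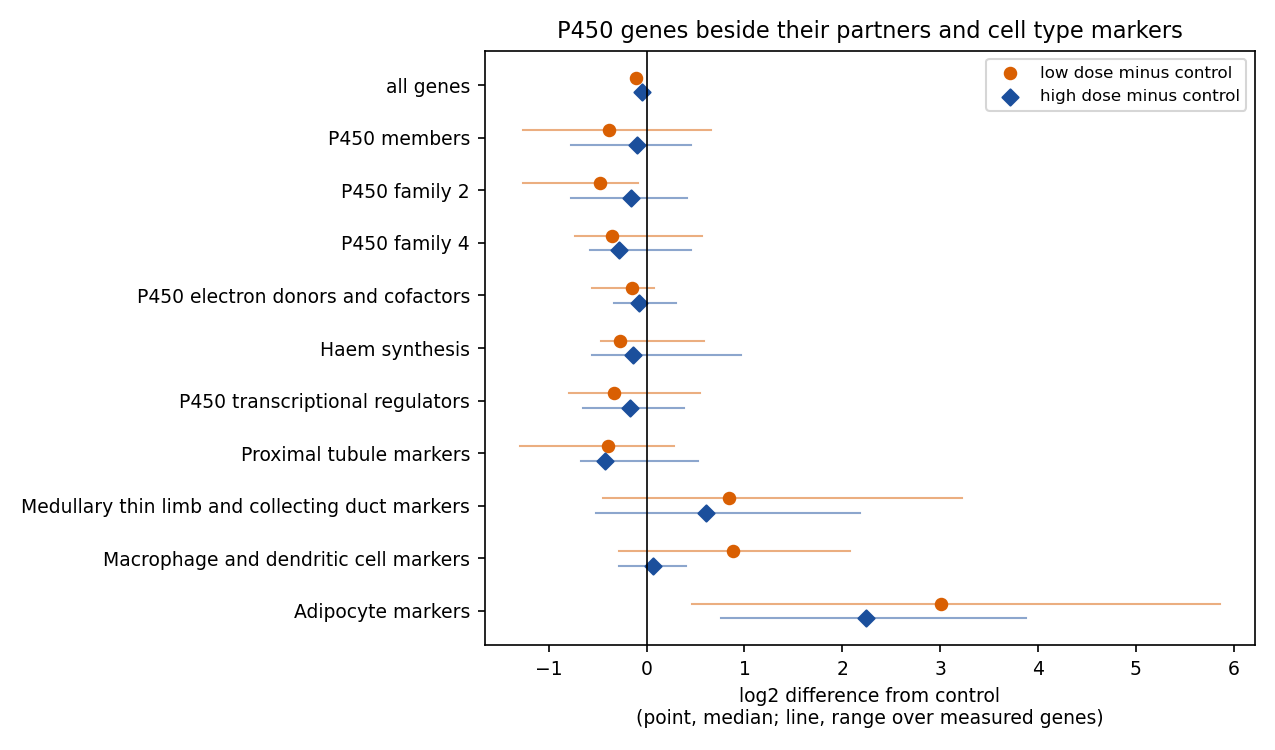
Median (points) and range (lines) of the log2 difference from control for measured genes of each list, with circles for the low dose and diamonds for the high dose; for all genes only the median is drawn. Proximal tubule markers have medians of -0.40 and -0.42, and family 2 has -0.48 and -0.16.

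Markers of several kidney and other cell types also differed between the arrays. For scale, 64.7% of named genes lay below control at the low dose and 56.9% at the high dose. At least 2-fold higher than control were 2.46% and 0.855%, and at least 2-fold lower 0.782% and 0.162%. All 25 proximal tubule markers were measured, and 23 lay below control at the low dose (median -0.40) and 21 at the high dose (median -0.42). Their summed level was 332847 units in control, 269706 at the low dose and 265576 at the high dose. Slc7a13 and Mep1b were past 2-fold at the low dose, at -1.30 and -1.26. Between the high and low doses 12 of the 25 were higher and 13 lower, from -0.27 to 0.85 with a median of -0.02. Slc7a13 (0.85), Slc22a7 (0.75), Mep1a (0.59), Mep1b (0.59), Slc7a7 (0.49), Acsm3 (0.45) and Gatm (0.44) had the highest of these differences, and all of them but Slc7a7 were lowest at the low dose. Markers of the medullary thin limb and collecting duct had medians of 0.84 and 0.61 over 11 measured genes. Of these, 8 lay above control and 3 below it at each dose. The list summed to 22428, 44297 and 30197 units, most of it from Aqp2 (12251, 30768 and 18708 units). Aqp2, Fxyd4, Slc14a2, Akr1b1 and Cldn4 were at least 2-fold higher at the low dose, and Slc14a2, Akr1b1 and Cldn4 at the high dose. Hsd11b2 (-0.45 and -0.52), Scnn1g (-0.28 and -0.37) and Scnn1b (-0.26 and -0.11) were the 3 below control. Macrophage and dendritic cell markers had medians of 0.89 and 0.07 over 12, with 12506, 19145 and 11256 units. At the low dose 11 lay above control and 1 below it (Csf1r, -0.28), and at the high dose 7 and 5. Cd14, C1qa, C1qb, C1qc and Clec10a were at least 2-fold higher at the low dose, while Mrc1 was above background on no array. Adipocyte markers had medians of 3.01 and 2.24 over 6, with 890 units in control, 9017 at the low dose and 4386 at the high dose, and Adipoq, Fabp4, Cidea, Pparg and Ucp1 passed 2-fold upward with each dose, while Plin1 and Lep were below background on every array. The 15 hepatocyte markers summed to 958, 1008 and 778 units; Ttr and Apoa1 were below background on every array, and Alb was above it at the low dose alone, at 19.2 units. Of 5 measured at the low dose, 2 lay above control (Fgb 2.77 and Fga 0.74) and 3 below it (Apoh -0.90, Ahsg -0.27 and Apob -0.20), with a median of -0.20. All 4 measured at the high dose lay below control, with a median of -0.25. Ahsg made up most of the sum, at 631, 525 and 498 units. The part of these cell types in the P450 differences was not tested.

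**Figure D4:**
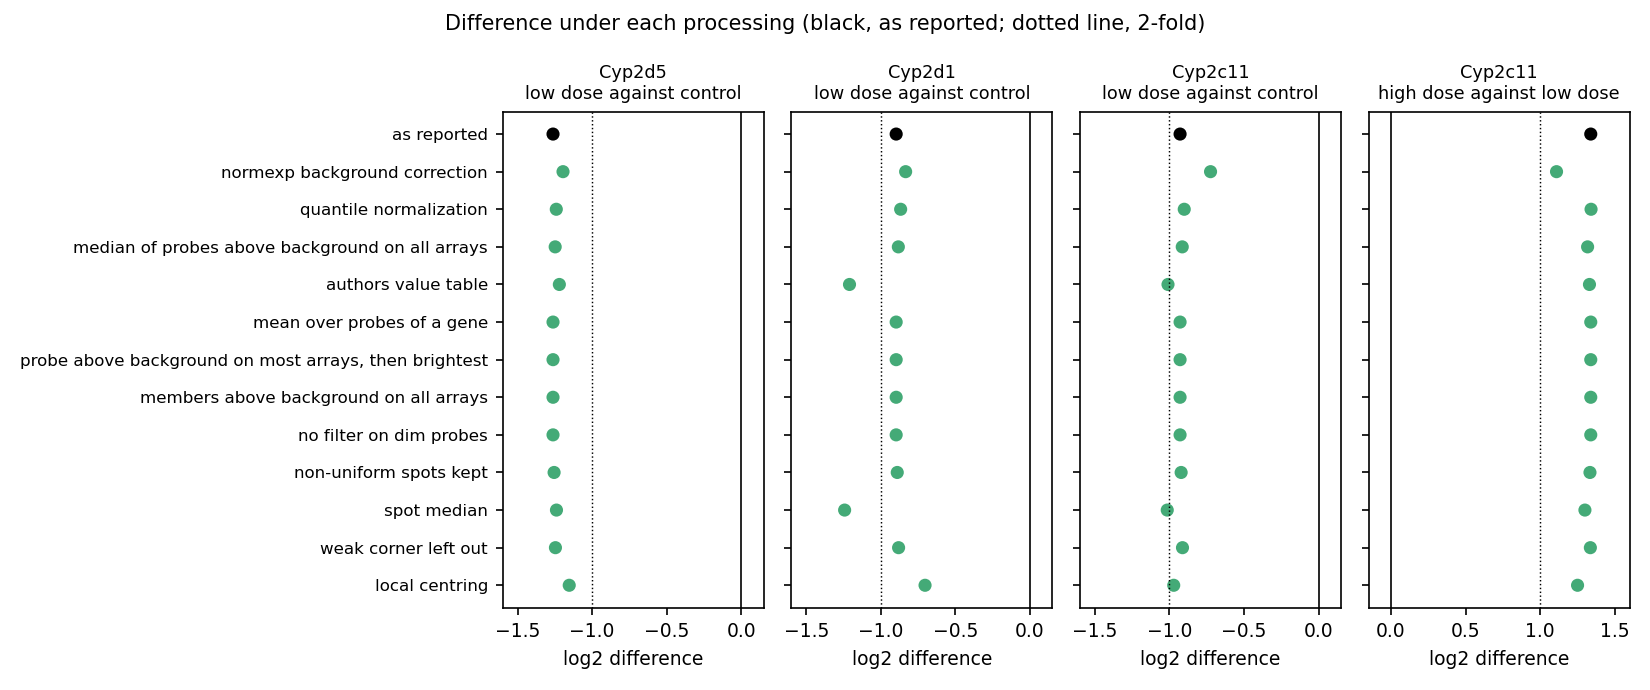
Log2 difference (horizontal axis) of Cyp2d5, Cyp2d1 and Cyp2c11 in the comparisons named above each panel, under each processing (rows; black as reported, dotted line at 2-fold). Cyp2d5 stays past 2-fold in every row, and Cyp2d1 and Cyp2c11 pass it at the low dose with spot medians and with the authors' values. Rows that change only the choice of probes or the background filter cannot move these genes, which have 1 probe each.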

How the data were processed

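Each array was hybridised with cRNA carrying the dye Cy3, per the labels. The deposited files give spot intensity at 532 nm from GenePix Pro 6.1.0.4, after subtraction of a background of 39 (control, high dose) or 40 (low dose), per the file headers. Agilent Feature Extraction is named in the submitters' processing notes. No genome build is given in the sources used here. Signal-to-noise ratio and flag are deposited as a score and saturated pixels as a percent, per the file headers. No member spot was saturated (0 on each array). A mouse design is named in the high-dose file's header, but its 45220 spots are annotated like those of the other files. The authors also deposited log2 values for each probe, all with a median of 4.77. Their scaling method is unknown. Every array was on the same slide, where position and group cannot be told apart. A further array, named in the file headers beside these, was not analysed here.

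Control spots, bright spots the software did not find (6 in control, 5 at the low dose, 6 at the high dose) and uneven spots, with a pixel mean over 1.5-fold from the median (135, 131 and 70), were left out. For Cyp2a1 on the control array and Cyp2j10 on the high-dose array this left no value. Net means were averaged per probe, scaled to a common 75th percentile (factors 1.15, 0.959 and 0.910), floored at 1 and put on the log2 scale. Of 68 members, 59 were matched by accession and 8 by symbol in RefSeq's GRCr8 table. The background for counts is all named genes above background on both arrays. The scaling and 2-fold steps were tested on simulated arrays made from the control array, with changes set in brighter genes only. Signal-to-noise and pixel evenness were copied from control there, so the filters on dim and uneven spots were not tested. Normexp used limma 3.58.1 with an offset of 50. Members, lists and rules were chosen with earlier results of these data known. Named were members past 2-fold, the largest differences and the one nearest to 0 in each group, and members measured on some arrays. Cyp partners and regulators were named where past 2-fold, with Por, Fdx1, Ahr, Nr1i2, Nr1i3 and Hnf4a; Pgrmc1, Alad, Alas2, Nr0b2, Rara, Rarb and marker genes under 2-fold were named after their values were seen. Results on 1 regulator are not reported here.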

Additional observations from a re-analysis of the deposited data

How the results depend on the processing

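Planned settings and 1 chosen after seeing the data (each probe centred on spots within 15 columns and rows) were tried. The median of the members kept its sign under all 12: -0.45 to -0.25 at the low dose, -0.13 to -0.01 at the high dose and 0.13 to 0.45 between the doses. With pixel medians, and with the authors' values, 3 of 24 members were at least 2-fold lower at the low dose, in place of 1. These were Cyp2d5, Cyp2d1 and Cyp2c11. Of 10354 named genes, 84 and 66 were that much lower under these settings. With no filter on dim probes, 1 of 67 members was higher and 20 lower at the low dose. At the high dose 6 of 66 were higher and 6 lower. The median of the members there was -0.01, above the -0.03 of all named genes. As reported it was below them, at -0.10 against -0.05. Between the doses 13 of 67 were higher and 1 lower, and the median was 0.45. The same setting gave 1012 higher and 1949 lower of 19267 named genes at the low dose. It gave 1145 and 1083 of 19295 at the high dose, and 1800 and 765 of 19297 between the doses. That setting counts probes below background. Over all named genes, normexp left 138 higher and 27 lower at the low dose in place of 255 and 81, 40 and 3 at the high dose in place of 90 and 17, and 22 and 70 between the doses in place of 51 and 162. With non-uniform spots kept, 35 were lower at the high dose. With the weak corner left out, 70 were higher at the high dose in place of 90. No paired analysis was possible because each group has 1 array. With 1 array a group, the spread between animals is unknown, and most members rest on 1 spot.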
